A study of Mus musculus with 9 samples.

Results

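LM8, which the series' design text describes as a MyD88 inhibitor, was given to mice that also received interleukin-33 (IL-33), and the lungs of those mice were compared here with lungs of mice that received IL-33 alone. All animals were wild-type (WT) C57BL/6 mice. The IL-33 group was challenged through the trachea with recombinant mouse IL-33 (rmIL-33) once a day from day 0 to day 3, and each dose was 0.5 µg. The IL-33+LM8 group had the same challenges and an intraperitoneal injection of 10 mg/kg LM8 before IL-33, and the PBS group was challenged with phosphate buffered saline. Each group had 3 whole-lung RNA-seq libraries, and no sham injection is named for the PBS and IL-33 groups, so an effect of the injection or its solvent and an effect of LM8 cannot be told apart. The study's methods give female mice of 6 to 8 weeks, a volume of 25 µL and lung collection on day 4 for PBS and IL-33 animals. The comparison covered 16831 of the 34638 genes in the deposited table, those with a mean of at least 0.5 FPKM (fragments counted, scaled to gene length and library size) over the 9 samples and a read in at least 1 of the 6 samples compared.

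IL-33 is an alarmin, a cytokine released by damaged or stressed barrier cells. It binds a receptor made of ST2, the product of Il1rl1, and the accessory protein encoded by Il1rap, and the adaptor MyD88 then links the receptor to the IRAK kinases, TRAF6 and the transcription factor NF-kB. MyD88 serves the IL-1 and IL-18 receptors and most Toll-like receptors in the same way. In the lung, IL-33 is known for acting on group 2 innate lymphoid cells (ILC2), whose IL-5 and IL-13 support eosinophils, alternatively activated macrophages and mucus-producing goblet cells.

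The libraries held between 53877663 and 90607218 counts. They fell into 2 kinds that cross the groups. Albumin (Alb), a liver transcript, stood at 139 to 267 FPKM in 2 libraries of each group and at 0 to 0.627 FPKM in the remaining library of each group (PBS 3, IL-33 1 and IL-33+LM8 3). The libraries without liver transcripts also held more Jund (137 to 172 FPKM, against 6.56 to 50.5) and more Cebpb (6.25 to 44.6 FPKM, against 0.497 to 1.27). Within both kinds of library all 907 calls reported here had the same direction as in the whole comparison. Of the 2 kinds, 1 has a single library per group. For 902 of the 907 the IL-33 and IL-33+LM8 samples did not overlap in FPKM, as for 43.2% of all genes tested. A split of the same samples could hardly change their direction, so that result says little about the kind of library. With a term for the kind of library in the model, chosen after the data were seen, 930 genes were called, 893 of them among those 907.

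More genes were lower than higher with LM8. A gene was called where the adjusted p (edgeR quasi-likelihood test, Benjamini-Hochberg) was under 0.05 and the change at least 2-fold, that is 1 on the log2 scale. By that rule 245 genes were higher with LM8 (1.46% of those tested) and 662 were lower (3.93%), and 73.0% of the calls were falls. With the adjusted p alone, 2120 genes were higher (12.6%) and 2339 were lower (13.9%). The median log2 fold change over all genes tested was -0.006, so gene values below can be read against a centre close to 0. Every log2 fold change is IL-33+LM8 minus IL-33 and is followed by its standard error (SE).

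The PBS lungs give the level without either agent. The calls rest on the IL-33 level, which the counts that follow use again. A PBS mean on the same side as the LM8 mean is therefore favoured by the selection, and its share over all genes tested was not counted. For 649 of the 662 genes that were lower with LM8, the mean FPKM was also lower in PBS than in IL-33 lungs, and for 523 of them the IL-33+LM8 mean lay between the other means. Among the 245 genes that were higher with LM8, 208 had a PBS mean above the IL-33 mean, and the remaining 37 had already been higher in IL-33 than in PBS lungs. The neutrophil genes S100a8, S100a9, Ly6g and Prok2, described below, belong to those 37. These are comparisons of means without a test, and Prok2 had 4, 0 and 4 reads in IL-33 samples and 0 in each PBS sample.

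**Figure D1:**
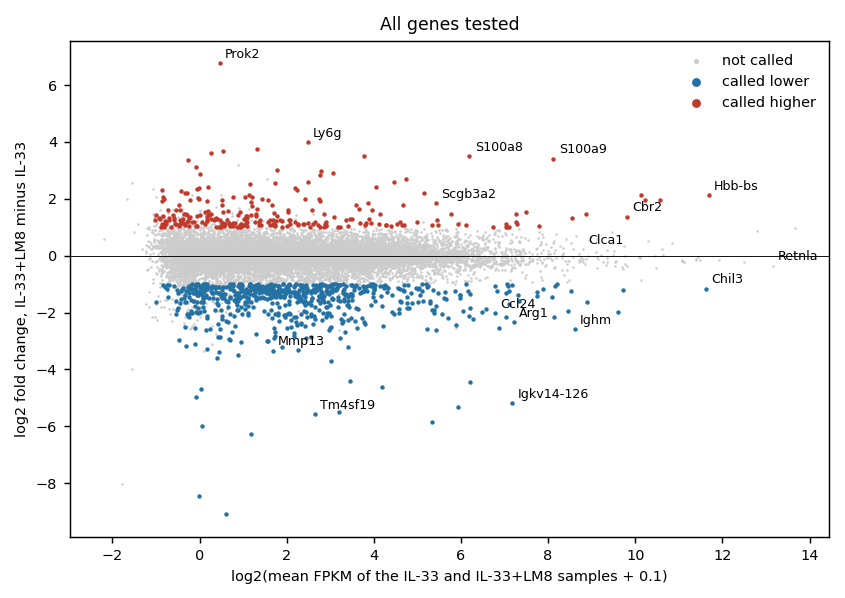
Each point is a gene, with the log2 of its mean FPKM in the IL-33 and IL-33+LM8 samples (plus 0.1) on the horizontal axis and its log2 fold change, IL-33+LM8 minus IL-33, on the vertical axis. The 245 genes called higher are red, the 662 called lower are blue, and genes not called are grey. Prok2 has the highest value, 6.77, and Retnla, the most abundant gene marked, lies at -0.35 and is not called.

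Among 64 gene and marker lists, 1011 members were listed, 916 of them were tested, and 188 of the 907 called genes were on a list. Medians of log2 fold change ran from -2.10 for eosinophil markers to 2.01 for erythroid genes. Because whole lung was sequenced, fewer cells of a type and less RNA per cell cannot be told apart in any of these values.

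**Figure D2:**
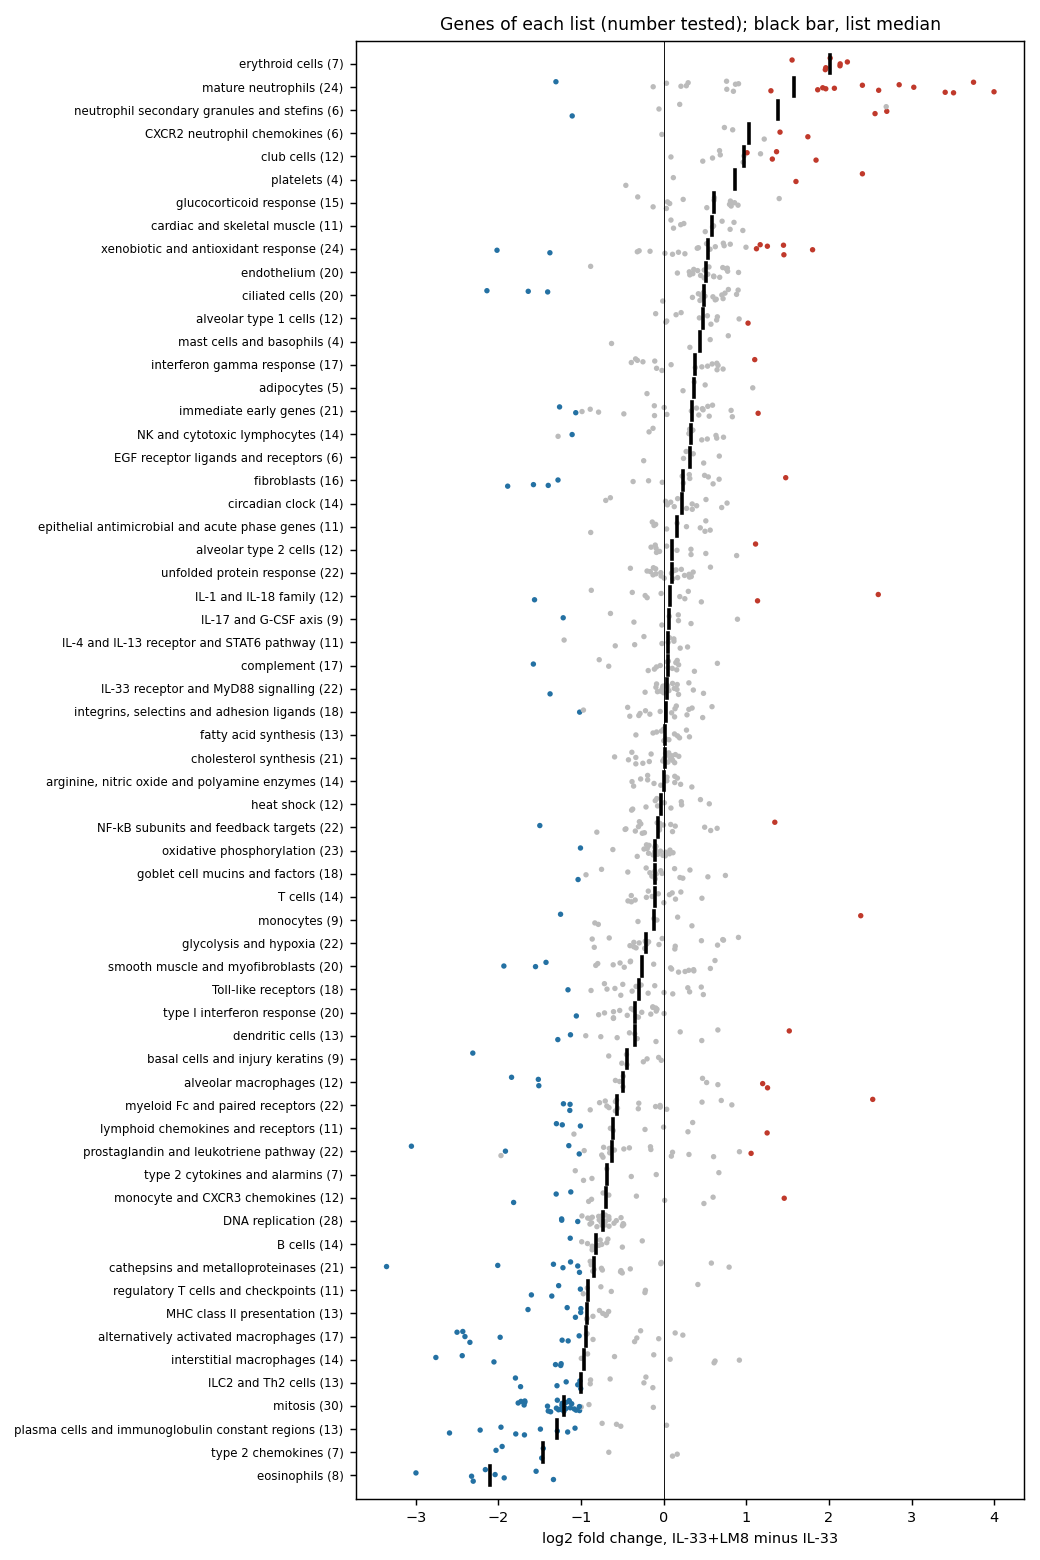
Each row is a list with at least 4 genes tested (number in parentheses), ordered by median; each point is a gene at its log2 fold change, IL-33+LM8 minus IL-33, and the black bar is the list median. Red points are called higher, blue points called lower and grey points not called. Eosinophil, type 2 chemokine, immunoglobulin and mitosis lists lie lowest, with medians of -2.10, -1.46, -1.29 and -1.21, and erythroid and mature neutrophil lists highest, with 2.01 and 1.58.

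Few transcripts of the pathway that LM8 is meant to block differed between the groups. Of 22 genes for the IL-33 receptor and MyD88 signalling, 1 was called lower, 2 more were higher by adjusted p alone and 19 passed neither rule, with a median log2 fold change of 0.04. Over all genes tested, 12.6% were higher and 13.9% lower by adjusted p. Il1rl1, which encodes ST2, stood at 14.5, 12.3 and 16.4 FPKM in IL-33 samples and at 5.29, 5.61 and 5.73 FPKM with LM8, against a PBS mean of 0.966 FPKM. Its groups did not overlap, as for 43.2% of all genes tested, and its log2 fold change was -1.38 ± 0.11 (adjusted p = 2.13e-04). Il1rap, the co-receptor, was slightly higher (0.48 ± 0.07, adjusted p = 0.00245). Myd88 itself stood at 25.2, 26.0 and 28.1 FPKM without LM8 and at 29.7, 31.4 and 28.7 FPKM with it (adjusted p = 0.0989). The kinase gene Irak4 (log2 fold change -0.04 ± 0.07, adjusted p = 0.748) and the ubiquitin ligase gene Traf6 (0.06 ± 0.07, adjusted p = 0.568) did not pass the test.

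Genes of NF-kB and its feedback did not move in a single direction. Of 22 tested, 4 were higher and 9 lower by adjusted p alone, and the median was -0.07. Tnip3, an inhibitor of the pathway, was called lower (-1.5 ± 0.13, adjusted p = 2.84e-04) and Rel, a subunit, was lower without reaching 2-fold (-0.81, adjusted p = 1.88e-04). Tnf, the gene for tumour necrosis factor, was called higher, from a mean of 0.681 to 1.73 FPKM (1.34 ± 0.21, adjusted p = 0.00317), and Nfkbia, the most abundant gene of the list and an inhibitor of NF-kB, was higher too (0.57 ± 0.06, adjusted p = 5.97e-04). Among 18 genes of the Toll-like receptor list, Tlr9 was called lower (-1.16 ± 0.16, adjusted p = 0.00211).

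Eosinophil transcripts gave the deepest fall of any list. All 8 of the markers tested were called lower, and their summed FPKM was 1025, 1153 and 1024 in IL-33 samples, 240, 294 and 252 with LM8 and 102 to 117 in PBS samples. Ear2 and Rnase2a, given next, made up most of the sums, and Ear2 alone had a PBS mean of 83.2 FPKM. Rnase2a, an eosinophil ribonuclease gene, stood at 435, 507 and 434 FPKM with IL-33 and at 97.6, 116 and 95 FPKM with LM8 (log2 fold change -2.16 ± 0.10, adjusted p = 4.64e-05). Ear2, a gene of the same family and the most abundant of the list, had a mean of 553 FPKM with IL-33 and 145 FPKM with LM8 (-1.93 ± 0.10, adjusted p = 5.1e-05). Ccr3, the eotaxin receptor, was at 5.45, 4.37 and 5.62 FPKM with IL-33 and at 0.750, 0.678 and 0.500 FPKM with LM8 (-3.00 ± 0.19, adjusted p = 1.13e-04). The groups did not overlap for any of these 3 genes, as for 43.2% of all genes tested, and Ear6 fell by 2.33 as well. Reads of the closely related Ear genes and Rnase2a may be shared between copies, so their separate levels are uncertain, and several eosinophil genes such as Siglecf are also transcribed in alveolar macrophages.

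Chemokines of type 2 inflammation split. Ccl24, the gene for eotaxin-2, stood at 166, 190 and 172 FPKM in IL-33 samples and at 22.4, 63.8 and 42.9 FPKM with LM8 (log2 fold change -2.03 ± 0.33, adjusted p = 0.00408). Ccl9 (-1.96 ± 0.15, adjusted p = 1.91e-04), Ccl8 (-1.48, adjusted p = 1.65e-04) and Ccl6, the most abundant of the list (mean 397 to 144 FPKM, adjusted p = 2.81e-04), were called lower as well. Ccl11, the gene for eotaxin-1, had means of 101 FPKM with IL-33 and 108 FPKM with LM8 (adjusted p = 0.754). Ccl17, which attracts Th2 cells through CCR4, had means of 133 and 149 FPKM (adjusted p = 0.603). Both had LM8 samples on either side of the IL-33 samples and PBS means of 1.69 and 7.70 FPKM, and the 95% confidence interval of the Ccl11 log2 fold change was -0.38 to 0.59. In all, 4 of the 7 chemokines tested were called lower and none higher.

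None of the 7 type 2 cytokines and alarmins tested was called, and 3 were lower by adjusted p alone. Over all genes tested, 3.93% were called lower and 13.9% were lower by adjusted p. Il5, the eosinophil growth factor, stood at 4.07, 4.01 and 4.07 FPKM with IL-33 and at 1.75, 2.47 and 2.42 FPKM with LM8 (log2 fold change -0.87 ± 0.18, adjusted p = 0.0115). Its groups did not overlap, as for 43.2% of all genes tested. Il13 stood at 2.24, 2.39 and 3.00 FPKM with IL-33 and at 1.04, 3.34 and 1.42 FPKM with LM8. Those values overlap, and the log2 fold change was -0.39 (95% confidence interval -1.40 to 0.61, adjusted p = 0.558), an interval that holds both 0 and the value of Il5. The endogenous Il33 transcript fell by 0.69 (adjusted p = 0.0431) and Il4 by 0.97 (adjusted p = 0.0341). Csf3 was among the genes below the FPKM minimum.

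Markers of ILC2 and Th2 cells were lower as a group. Of 13 tested, 7 were called lower and 3 more were lower by adjusted p alone, with a median of -1.0, whereas none of 14 general T cell markers was called and their median was -0.10. Il17rb, the IL-25 receptor gene, stood at 23.5, 21.4 and 24.8 FPKM with IL-33 and at 7.03, 6.90 and 7.03 FPKM with LM8 (-1.73 ± 0.07, adjusted p = 3.29e-05). Il9r fell by 1.79, Il7r by 1.29 and Gata3, the transcription factor gene of type 2 lymphocytes, by 1.0 (adjusted p = 4.8e-04). Gata3 lay on the 2-fold limit and was not called without IL-33 3, IL-33+LM8 2 or IL-33+LM8 3, at -0.91, -0.97 and -0.97. Ctla4 (-1.6 ± 0.13) and Foxp3 (-1.35 ± 0.29, adjusted p = 0.0121), genes of regulatory T cells, were among the 4 of 11 called lower in the list of regulatory and checkpoint genes.

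Genes of alternatively activated macrophages split too. Arg1, the arginase of alternatively activated macrophages, stood at 256, 249 and 240 FPKM with IL-33 and at 36.4, 64.7 and 45.1 FPKM with LM8 (log2 fold change -2.35 ± 0.20, adjusted p = 2.81e-04). Mmp12, the macrophage elastase, had means of 100 and 18.6 FPKM (-2.43 ± 0.10, adjusted p = 3.29e-05), and Gpnmb, a lysosomal glycoprotein gene, fell by 2.5. Retnla, which encodes RELMα and was the most abundant gene of the list, stood at 9391, 10380 and 10852 FPKM with IL-33 and at 6245, 9827 and 7904 FPKM with LM8. Its groups overlap and its log2 fold change, -0.35 ± 0.17, did not pass the test (adjusted p = 0.171). Chil3 and Chil4, 2 chitinase-like genes whose reads may be shared, were called lower (-1.16 and -1.23). In all, 8 of 17 genes of alternative activation were called lower and none higher, with a median of -0.94.

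The 250 bases before the RefSeq transcription start (GRCm38.p6) are shown for Mmp12, which fell, and Retnla, which was not called, because they differ in the short motifs searched. Capitals mark the C/EBP motif, searched as TTGCNNAA, and, in Retnla, also the STAT6 motif, TTCNNNNGAA, which lies 1 base before it without overlap. Both strands were searched, also for an AP-1 motif, TGANTCA, and an NF-kB motif, GGGNNNNNCC, which is too common to mark. The Mmp12 sequence is chr9:7344147-7344396 and the Retnla sequence chr16:48842359-48842608, both on the plus strand.
Mmp12: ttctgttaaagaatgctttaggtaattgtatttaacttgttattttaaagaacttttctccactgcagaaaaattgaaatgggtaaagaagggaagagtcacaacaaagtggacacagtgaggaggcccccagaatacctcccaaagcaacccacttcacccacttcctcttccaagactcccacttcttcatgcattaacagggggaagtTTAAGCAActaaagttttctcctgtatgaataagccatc
Retnla: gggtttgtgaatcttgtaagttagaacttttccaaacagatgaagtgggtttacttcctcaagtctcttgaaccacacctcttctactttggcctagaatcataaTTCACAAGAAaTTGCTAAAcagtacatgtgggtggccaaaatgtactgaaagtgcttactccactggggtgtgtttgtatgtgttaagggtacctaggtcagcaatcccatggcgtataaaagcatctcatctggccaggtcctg
Over the 11534 tested genes with a RefSeq sequence, 5.7% held the STAT6 motif and 9.5% the C/EBP motif in this window. In these shares a gene counted if the window of any of its listed starts held the motif. The STAT6 motif was in 8.0% of 363 genes called lower and 4.3% of 163 called higher, and the C/EBP motif in 11.3% and 12.9%. The AP-1 motif was in 6.0% of all, 9.6% of lower and 8.0% of higher genes, and the NF-kB motif in 65.2%, 60.1% and 52.8%. A match is a run of letters and not a bound site.

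Macrophage identity genes moved in both directions. Of 14 interstitial macrophage genes, 6 were called lower, including Ms4a7 (-2.76 ± 0.14) and the phagocytic receptor gene Trem2 (-2.44 ± 0.13), while Lyve1 (0.92, adjusted p = 1.38e-04) and Cd163 (0.62, adjusted p = 0.00338), which mark resident macrophages near vessels, were higher without reaching 2-fold. Lyve1 is also a gene of lymphatic endothelium. Of 12 alveolar macrophage genes, Atp6v0d2, Ctsk and Fabp4 were called lower and 2 were called higher, Krt79 (1.20, adjusted p = 0.00132) and Marco, a scavenger receptor gene (mean 2.40 to 5.74 FPKM, 1.26, adjusted p = 0.00241). Fn1, a monocyte and matrix gene, was called lower (-1.25 ± 0.08), whereas F13a1, for a clotting factor subunit of monocytes, was called higher (2.39 ± 0.10, adjusted p = 3.4e-05).

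All 13 of the MHC class II presentation genes tested were lower by adjusted p, and 5 were called, with a median of -0.93. Cd74, the invariant chain, had means of 1444 and 798 FPKM (-0.86 ± 0.07, adjusted p = 2.87e-04), and Ctss, the protease that trims that chain, had means of 716 and 229 FPKM (-1.64 ± 0.07, adjusted p = 3.29e-05). Psap, a lysosomal protein gene, was lower too (mean 1169 to 508 FPKM, -1.20 ± 0.07). Of 21 cathepsins, metalloproteinases and their inhibitors, 7 were called lower, 16 were lower and 2 higher by adjusted p, and 3 passed neither rule, among them the cystatin gene Cst3 (-0.03, adjusted p = 0.795). Mmp13, a collagenase, went from 5.36, 5.37 and 6.20 FPKM to 0.465, 0.588 and 0.592 FPKM (-3.35 ± 0.16, adjusted p = 4.54e-05).

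Immunoglobulin genes made up 8 of the 10 largest falls among genes with at least 2 FPKM in the higher group. Of 169 variable genes tested, 122 were called lower and none higher. Their summed FPKM was 2610, 2700 and 2741 with IL-33, 701, 715 and 683 with LM8 and 542 to 569 in PBS samples. The FPKM minimum was taken over all samples, so a variable gene could enter through the IL-33 group alone. Ighv2-4, at 0 in every PBS and LM8 sample, did so, and such a gene can only fall. The counts and sums are partly set by that filter. Ighm, the constant region of IgM, stood at 667, 646 and 693 FPKM with IL-33 and at 112, 112 and 109 FPKM with LM8 (log2 fold change -2.59 ± 0.06, adjusted p = 7.86e-06). Igkc, the kappa constant region, fell by 1.97 and Ighg2c by 2.22, and 9 of 13 plasma cell and constant region genes were called lower.

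A small set of variable genes was high in every IL-33 sample. Ighv11-2 stood at 122, 80.0 and 156 FPKM with IL-33 and at 3.41, 2.94 and 2.56 FPKM with LM8 (-5.33 ± 0.28, adjusted p = 5.68e-05), and Igkv14-126 at 269, 192 and 379 FPKM and at 6.93, 7.88 and 7.91 FPKM (-5.20 ± 0.27). Ighv12-3 stood at 73.9, 51.6 and 111 FPKM and at 0.716, 2.30 and 1.07 FPKM (-5.85 ± 0.48), and Igkv4-91 had means of 141 and 6.39 FPKM (-4.46 ± 0.32). As background, Ighv11-2 with Igkv14-126 and Ighv12-3 with Igkv4-91 are pairs known from the antibodies to phosphatidylcholine that B-1 cells make. In all 4 genes IL-33 sample 3 was highest and IL-33 sample 2 lowest. Other variable genes with large falls varied between samples: Ighv10-3 stood at 36.0, 63.4 and 4.53 FPKM with IL-33, Iglj2, a joining segment, at 0.145, 46.5 and 7.97 FPKM, and Igkv4-69 at 3.50, 9.33 and 0 FPKM, with LM8 samples at or under 2.44 FPKM. The groups overlap for Igkv4-69, whose call was lost without IL-33 1 or 2 or any 1 of the LM8 samples (-9.56 to -5.02), and the Iglj2 call was lost without IL-33 2 or 3 or any 1 of the LM8 samples (-5.85 to -3.41). Ighv2-4 was listed at 0 in all LM8 samples and at 1.89, 5.90 and 0.706 FPKM with IL-33. Reads of similar variable genes may be shared. General B cell genes had a smaller median fall, with 13 of 14 lower by adjusted p, 1 called (Spib, a B cell transcription factor gene, -1.13 ± 0.11) and a median of -0.82.

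Outside the immunoglobulins, Tm4sf19, a tetraspanin-like membrane protein gene of macrophages and osteoclasts, had the largest fall of those genes. It stood at 11.8, 11.5 and 12.8 FPKM with IL-33 and at 0.272, 0.117 and 0.337 FPKM with LM8 (-5.57 ± 0.33, adjusted p = 7.89e-05), near the PBS mean of 0.0445 FPKM. The pseudogene Gm20056 fell by 4.42.

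Cell division genes were lower nearly throughout. Of 30 mitosis genes, 27 were called lower and 29 were lower by adjusted p, with a median of -1.21, and their summed FPKM had means of 323 with IL-33, 139 with LM8 and 51.0 in PBS samples. Mki67, a proliferation marker, stood at 32.6, 28.6 and 30.9 FPKM with IL-33 and at 10.9, 11.8 and 12.9 FPKM with LM8 (-1.37 ± 0.08, adjusted p = 7.81e-05). DNA replication genes had a smaller median fall: 27 of 28 were lower by adjusted p but 3 were called, among them Rrm2, a subunit of ribonucleotide reductase (-1.24 ± 0.13), and the median was -0.74.

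Of 16 fibroblast genes 4 were called lower, 1 was called higher, 5 were higher by adjusted p and 7 passed neither rule, and of 20 genes of smooth muscle and myofibroblasts 3 were called lower, with 5 higher and 9 lower by adjusted p. Col1a1, the main collagen of scar tissue, stood at 145, 166 and 136 FPKM with IL-33 and at 38.3, 43.0 and 39.5 FPKM with LM8, close to the PBS mean of 33.6 FPKM (log2 fold change -1.89 ± 0.09, adjusted p = 4.78e-05). Col3a1 (-1.58 ± 0.20), the collagen-modulating gene Cthrc1 (-1.93 ± 0.21) and the matrix gene Tnc (-1.55 ± 0.20) were called lower too. Mfap4, a microfibril gene (-1.28), and Col1a2 (-1.40) were the remaining fibroblast genes called lower. In the same list Pdgfra was higher by adjusted p alone (0.60, adjusted p = 2.44e-04), Dcn did not pass the test (-0.02, adjusted p = 0.944), and Inmt, an amine methyltransferase and the most abundant gene of the list, was called higher (mean 249 to 694 FPKM, 1.48 ± 0.22, adjusted p = 0.00241).

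Most goblet cell genes did not pass the test, nor did most of all genes tested. Over all genes, 12.6% were higher and 13.9% lower by adjusted p, and 1.46% and 3.93% were called higher and lower. Of 18 goblet cell genes tested, 5 were lower and 1 higher by adjusted p, and 12 passed neither rule. Muc5ac, 1 of those 5, was the sole gene called. It stood at 11.8, 11.5 and 14.2 FPKM with IL-33 and at 6.42, 6.06 and 5.79 FPKM with LM8 (log2 fold change -1.04 ± 0.09, adjusted p = 3.27e-04). Without IL-33 3 or IL-33+LM8 3, Muc5ac fell short of 2-fold, at -0.92 and -0.99. Clca1, a goblet cell secreted protein, stood at 415, 387 and 428 FPKM with IL-33 and at 481, 486 and 477 FPKM with LM8, slightly higher (0.23 ± 0.07, adjusted p = 0.0405), against a PBS mean of 5.04 FPKM. Muc5b, the other gel-forming airway mucin, had means of 20.4 and 19.0 FPKM (adjusted p = 0.281), and Slc26a4, an anion exchanger gene of inflamed airways, of 84.3 and 75.0 FPKM (adjusted p = 0.64). The goblet list as a whole had a median of -0.10, and its summed FPKM had means of 163, 803 and 876 in PBS, IL-33 and IL-33+LM8 samples.

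None of the 11 genes of the IL-4 and IL-13 receptor and STAT6 pathway was called, with a median of 0.05. By adjusted p alone, 2 of them were higher and 2 lower. Socs1 changed most (log2 fold change -1.2, adjusted p = 0.263), with uneven LM8 samples at 0.561, 0.565 and 3.12 FPKM. Over all genes tested, 1.46% were called higher and 3.93% lower, so a list this short can hold no call at that share. Complement C3, made by epithelium and macrophages, had means of 801 and 703 FPKM (adjusted p = 0.184), although C3ar1, its receptor gene on myeloid cells, fell by 1.58. No gene was called among 22 of the unfolded protein response, 21 of cholesterol synthesis, 13 of fatty acid synthesis, 12 of heat shock and 14 of arginine, nitric oxide and polyamine metabolism (a list without Arg1, described above), and 1 of 23 oxidative phosphorylation genes was. That gene, Cox5a (-1.01 ± 0.24), was not called without IL-33 1 or 3 or IL-33+LM8 1 or 2, at -1.0 to -0.79. Their medians lay between -0.10 and 0.10.

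**Figure D3:**
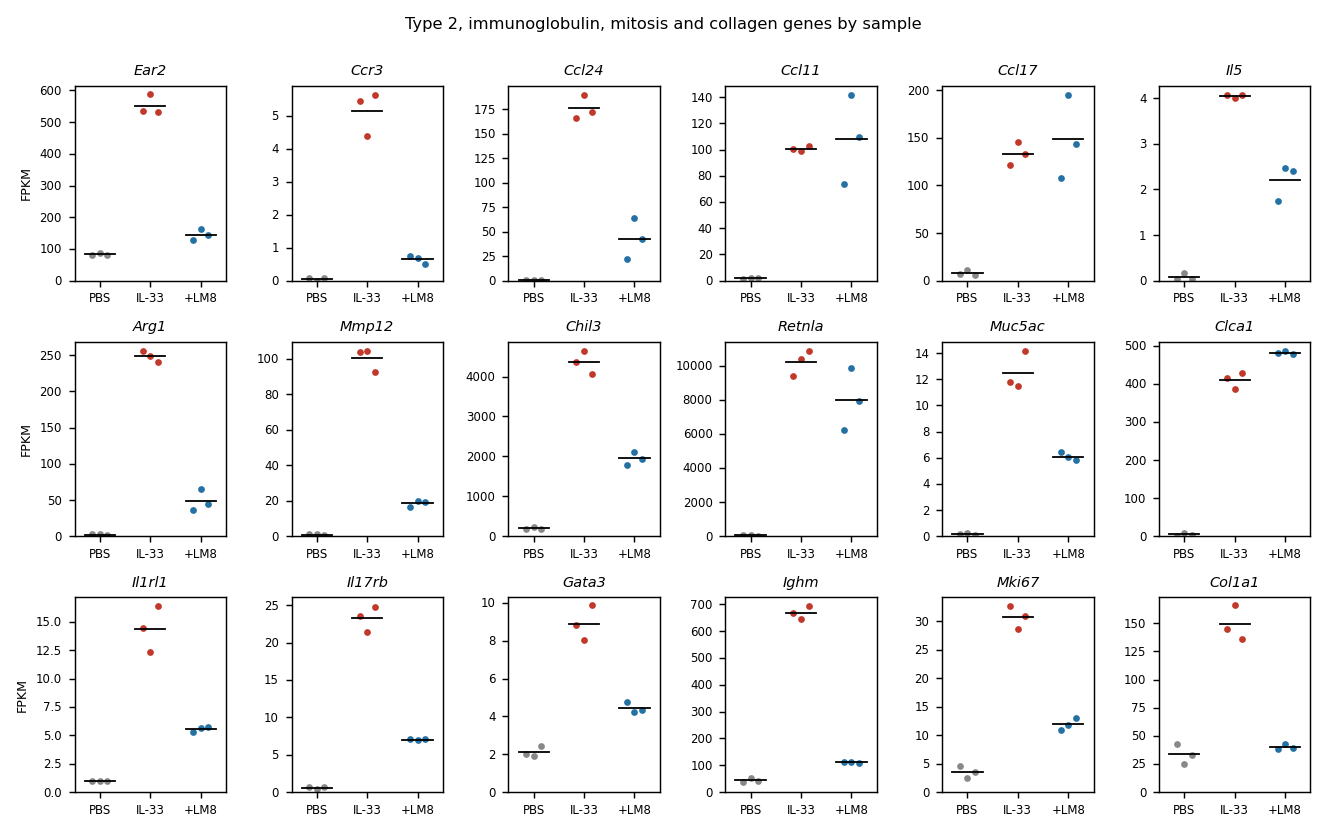
Each panel shows FPKM, on a linear axis from 0, of 1 gene in the 3 PBS (grey), 3 IL-33 (red) and 3 IL-33+LM8 (blue, "+LM8") samples, with the group mean as a bar. Ear2, Ccr3, Ccl24, Arg1, Mmp12, Ighm, Mki67 and Col1a1 are far lower with LM8, Ccl11, Ccl17 and Retnla overlap between those groups, Clca1 is slightly higher, and Il5 and Muc5ac are lower by smaller folds.

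Mature neutrophil genes rose beyond their level in IL-33 lungs. Of 24 tested, 13 were called higher and 1 lower, with a median of 1.58. Mrgpra2b, 1 of the 13, passed the FPKM minimum through the LM8 group alone, so it could only rise. S100a9, the more abundant subunit of calprotectin, stood at 39.9, 57.0 and 46.7 FPKM with IL-33 and at 563, 482 and 481 FPKM with LM8 (log2 fold change 3.41 ± 0.14, adjusted p = 3.29e-05), and its PBS mean was 15 FPKM. S100a8, the other subunit, had means of 11.8 and 134 FPKM (3.51 ± 0.12, adjusted p = 3.11e-05). Ly6g, the surface marker of mouse neutrophils, stood at 0.729, 0.435 and 0.703 FPKM with IL-33 and at 11.8, 8.64 and 10.6 FPKM with LM8 (4.0 ± 0.25, adjusted p = 1.02e-04). The collagenase gene Mmp8 rose by 2.6 and the chemokine receptor gene Cxcr2 by 1.3.

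Several other neutrophil genes did not follow. Cd177, a surface protein of activated and mature neutrophils, had means of 14.7 and 13.4 FPKM (adjusted p = 0.685), and Pglyrp1, Padi4 and Il1r2 did not pass the test either, while Cyp4f18 was called lower (-1.3, adjusted p = 3.8e-05). Among secondary granule genes, Ngp rose by 2.70 and Camp, for cathelicidin, by 2.56, but Ltf, for lactoferrin, fell by 1.11 (adjusted p = 0.0139), and Lcn2 had means of 135 and 130 FPKM (adjusted p = 0.663). Ltf, Lcn2 and Cd177 are also transcribed outside neutrophils. Prtn3, an early granulocyte gene, was the sole precursor gene tested (0.68 ± 0.37, adjusted p = 0.219).

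Prok2, for a secreted peptide that neutrophils make, had the largest rise by the same rule. It stood at 0.0303, 0 and 0.0368 FPKM with IL-33, which were 4, 0 and 4 reads, and at 2.71, 2.54 and 2.34 FPKM with LM8 (6.77 ± 0.60, adjusted p = 3.37e-04). Ly6g, S100a8 and S100a9, given above, were among the 10 largest rises by that rule too, with the receptor genes Mrgpra2b (3.75 ± 0.31), its near copy Mrgpra2a (3.62 ± 0.30), Clec4e (3.03 ± 0.28) and Fpr1 (2.97 ± 0.25), the interferon-induced family member Ifitm6 (3.51 ± 0.14) and the cystatin gene Cst8 (3.69 ± 0.72, adjusted p = 0.00857). The FPKM minimum was taken over all samples, so a gene could enter through the LM8 group alone. Prok2, Mrgpra2a and Mrgpra2b, under 0.5 FPKM in every PBS and IL-33 sample, did so and could only rise. For 8 of the 10 the PBS mean lay below the IL-33 mean. The exceptions were Cst8, with means of 7.35 FPKM in PBS, 0.191 FPKM with IL-33 and 2.51 FPKM with LM8, and Fpr1, with means of 5.98, 1.54 and 12.1 FPKM.

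The 250 bases before the RefSeq start (GRCm38.p6) of S100a9, chr3:90695722-90695971 on the minus strand, and Ly6g, chr15:75155011-75155260 on the plus strand, are shown as examples of genes that rose and hold the C/EBP motif, in capitals. The same window of S100a8, which rose as well, held none of the C/EBP, STAT6 and AP-1 motifs. For each gene shown, the first of the RefSeq starts listed was taken. Cebpb itself stood at 6.25 to 44.6 FPKM in libraries without liver transcripts and at 0.497 to 1.27 FPKM in the others, so its level follows the kind of library.
S100a9: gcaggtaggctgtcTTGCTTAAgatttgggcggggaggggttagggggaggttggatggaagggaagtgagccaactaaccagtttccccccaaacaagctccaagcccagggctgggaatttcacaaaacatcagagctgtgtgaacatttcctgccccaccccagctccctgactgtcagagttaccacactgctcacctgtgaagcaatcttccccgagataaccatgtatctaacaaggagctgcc
Ly6g: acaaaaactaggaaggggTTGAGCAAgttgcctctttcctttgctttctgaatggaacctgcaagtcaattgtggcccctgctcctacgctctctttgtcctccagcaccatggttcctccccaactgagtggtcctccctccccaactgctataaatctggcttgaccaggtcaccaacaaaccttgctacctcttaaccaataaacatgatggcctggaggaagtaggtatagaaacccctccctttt

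Of 6 genes listed with the neutrophil chemokines, which include the receptor genes Cxcr1 and Ackr2, 2 were called higher. Of 12 IL-1 and IL-18 family genes 2 were called higher and 1 lower. Cxcl2 stood at 0.902, 1.16 and 0.939 FPKM with IL-33 and at 2.86, 4.20 and 3.14 FPKM with LM8 (1.75 ± 0.22, adjusted p = 0.0012), and Cxcl5 at 0.924, 1.22 and 1.12 FPKM and at 1.25, 4.29 and 3.12 FPKM (1.41 ± 0.42, adjusted p = 0.0447), a call that was lost without IL-33 1, 2 or 3 or IL-33+LM8 2 or 3, with values of 1.0 to 1.5. Cxcl1 did not pass the test (1.22 ± 0.39, adjusted p = 0.0588). Il36g, an epithelial and myeloid IL-1 family cytokine, rose by 2.6 (mean 1.57 to 9.53 FPKM, adjusted p = 8.29e-05) and Il1b by 1.14, while Il1rn, the antagonist of IL-1, fell by 1.56. Il6, a product of many stimulated cells, fell by 1.22 (adjusted p = 0.00856).

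Red cell transcripts moved with the same samples. All 7 erythroid genes tested were called higher, with a median of 2.01, and their summed FPKM was 2540 to 3189 in IL-33 samples, 10888 to 12339 with LM8 and 7849 to 9294 in PBS samples. Hbb-bs, a beta globin, had means of 1221 and 5360 FPKM (2.13 ± 0.12, adjusted p = 6.03e-05), and reads of the paired globin copies Hba-a1 and Hba-a2, and Hbb-bs and Hbb-bt, may be shared. Of 4 platelet genes, Gp9 (2.41 ± 0.35) and Ppbp (1.6 ± 0.20) were called higher and Pf4 was lower by adjusted p alone (-0.46 ± 0.14, adjusted p = 0.047). The red cell sums did not overlap between any of the 3 groups, and they were highest with LM8 and lowest with IL-33. Summed mature neutrophil FPKM was 142 to 159 in PBS samples, 357 to 402 with IL-33 and 1120 to 1312 with LM8. S100a9 and S100a8, with means of 509 and 134 FPKM with LM8, made up most of the LM8 sum and of its rise. The part of blood content in the neutrophil rise was not tested beyond these values.

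**Figure D4:**
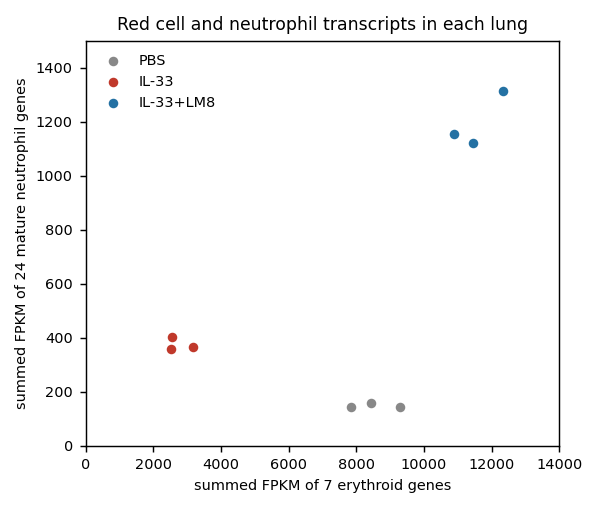
Each point is a sample, with the summed FPKM of 7 erythroid genes on the horizontal axis and of 24 mature neutrophil genes on the vertical axis. S100a9 and S100a8 make up most of the neutrophil sum with LM8. PBS samples (grey) have erythroid sums of 7849 to 9294 and neutrophil sums of 142 to 159; IL-33+LM8 samples (blue) have 10888 to 12339 and 1120 to 1312.

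Airway secretory and detoxifying genes rose towards their PBS level. Of 12 club cell genes, 4 were called higher and 9 were higher by adjusted p, with a median of 0.97. Scgb3a2, a secretoglobin, stood at 16.5, 20.8 and 18.6 FPKM with IL-33 and at 71.6, 63.3 and 65.8 FPKM with LM8 (log2 fold change 1.84 ± 0.10, adjusted p = 6.48e-05), against a PBS mean of 214 FPKM. Cyp2f2, a club cell cytochrome, had means of 213 and 530 FPKM (1.32 ± 0.13, adjusted p = 4.8e-04) and 1267 FPKM in PBS samples, and Cbr2, a carbonyl reductase, of 500 and 1289 FPKM (1.37 ± 0.13). Of 24 xenobiotic and antioxidant genes, 6 were called higher, led by the glutathione transferase gene Gsta3 (1.80 ± 0.10, adjusted p = 5.62e-05), and 2 were called lower, the cystine transporter gene Slc7a11 (-2.02 ± 0.11) and Hmox1, the haem-degrading enzyme gene (-1.38, adjusted p = 5.94e-04).

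Ciliated cell genes separated by role. Mcidas, a factor that starts the multiciliated programme, stood at 1.68, 1.71 and 1.65 FPKM with IL-33 and at 0.457, 0.293 and 0.391 FPKM with LM8 (-2.14 ± 0.23, adjusted p = 6.38e-04), against a PBS mean of 0.281 FPKM. Ccno (-1.64 ± 0.27) and Deup1 (-1.40, adjusted p = 0.00117), which act in the multiplication of centrioles, were called lower too. In contrast, 15 of the 20 genes, most of them for structural parts of the finished cilium, were higher by adjusted p alone, such as Tppp3 (mean 58.3 to 108 FPKM, 0.88 ± 0.07, adjusted p = 2.38e-04). Foxj1, a transcription factor gene of ciliated cells, did not pass the test (-0.01, adjusted p = 0.946).

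**Figure D5:**
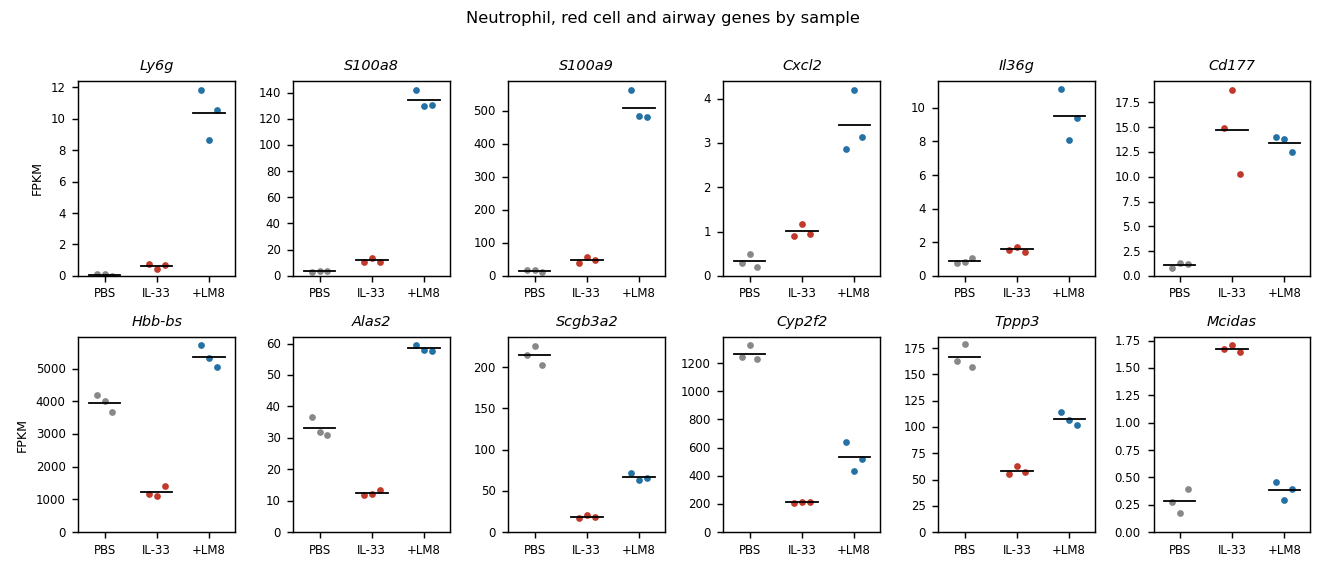
Each panel shows FPKM, on a linear axis from 0, of 1 gene in the 3 PBS (grey), 3 IL-33 (red) and 3 IL-33+LM8 (blue, "+LM8") samples, with the group mean as a bar. Ly6g, S100a8, S100a9, Cxcl2 and Il36g are highest with LM8, Cd177 did not pass the test, globin and airway genes are lowest with IL-33 alone, and Mcidas is highest with IL-33 alone.

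Most endothelial genes were higher by less than 2-fold. None of 20 endothelial genes was called, yet 16 were higher by adjusted p alone, with a median of 0.51, and Gpihbp1, a capillary protein gene, had means of 21.4 and 40.1 FPKM (0.91 ± 0.06, adjusted p = 1.38e-04). Of 12 alveolar type 2 genes 5 were higher by adjusted p, 1 of them called, and 7 passed neither rule, with a median of 0.10, and of 12 alveolar type 1 genes 8 were higher, 1 of them called, with a median of 0.48. Sftpc, the surfactant gene of alveolar type 2 cells, had means of 4993 and 9203 FPKM (0.88 ± 0.08, adjusted p = 4.12e-04), and Hopx, an alveolar type 1 gene, was called higher (1.02 ± 0.09, adjusted p = 3.03e-04), though at 0.96 without IL-33 1 or IL-33+LM8 1 it fell short of 2-fold. Cardiac and skeletal muscle genes had summed FPKM with means of 298 in PBS, 91.9 with IL-33 and 127 with LM8, and none of 11 was called. Of 15 glucocorticoid-responsive genes, 8 were higher by adjusted p alone and none was called, with Tsc22d3, a classic target of the receptor, at 56.4 and 80.9 FPKM (0.52 ± 0.05, adjusted p = 3.76e-04).

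Of 20 type I response genes, 10 were lower and none higher by adjusted p alone, and Mx1, an antiviral GTPase gene, was called lower (-1.06 ± 0.13, adjusted p = 0.00123). Of 17 interferon gamma response genes, 14 passed neither rule, and the summed FPKM of the list, 360, 210 and 284 with LM8, overlapped the 223 to 258 with IL-33. The other 3 were higher by adjusted p, among them Gbp2, a guanylate-binding protein gene (0.72 ± 0.22, adjusted p = 0.0459). Ido1 was the 1 gene of the list called (mean 0.284 to 0.612 FPKM, 1.10 ± 0.32, adjusted p = 0.0423). The Ido1 call was lost without IL-33 1, 2 or 3 or IL-33+LM8 1 or 3, with values of 0.86 to 1.23. Cxcl9, a chemokine for activated T cells in the CXCR3 list, was called higher (mean 1.25 to 3.46 FPKM, 1.46 ± 0.40, adjusted p = 0.0336). The Cxcl9 values with LM8 were uneven, at 5.54, 1.65 and 3.18 FPKM, and the call was lost without IL-33 1, 2 or 3 or IL-33+LM8 1 or 3, with values of 0.95 to 1.62. Mx1 fell short of 2-fold without IL-33 3 (-0.93) or IL-33+LM8 3 (-0.98).

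Among lipid mediator genes, Pla2g2d, a phospholipase of dendritic cells and macrophages, fell by 3.05 (adjusted p = 0.005) and Alox15, the lipoxygenase of eosinophils and macrophages, fell from a mean of 66.0 to 17.5 FPKM (-1.92 ± 0.07, adjusted p = 3.29e-05). Hpgd, which inactivates prostaglandins, was called higher (1.06 ± 0.08), but not without IL-33+LM8 1 (0.99). Of 22 genes in that list 4 were called lower and 1 higher.

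Some lists of other lung and immune cells held few or no calls. Over all genes tested, 1.46% were called higher and 3.93% lower. Of 14 genes of NK and cytotoxic lymphocytes 1 was called lower and 11 did not pass the test, and of 4 mast cell and basophil genes none was called. The dendritic cell list held a larger share of calls: of 13 genes 2 were called lower and 1 higher. By adjusted p, 6 of them were lower and 2 higher. None was called among 22 genes of glycolysis and hypoxia (5 higher and 8 lower by adjusted p alone), 14 of the circadian clock and 6 of the EGF receptor and its ligands.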

How the data were processed

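RNA of 9 mouse lungs was sequenced, 3 per group. The deposited table gives read counts and FPKM per gene and sample, which the authors made from the reads. The submitters' processing notes name HISAT2 2.0, StringTie 1.3.0, Bowtie 0.12.2 and the build mm10, without saying how counts were taken or whether strand was used, and no coordinate of the table is printed because they differ from those of that build. Deposited counts are whole numbers, 53877663 to 90607218 per sample, and the deposited FPKM were used for the filter, levels and list sums. All 18 columns of sample values were mapped by name, and 0 were left out. The labels number the samples without saying that each is 1 mouse, so p-values measure the spread between these samples.

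Genes with a mean of at least 0.5 FPKM over 9 samples were fitted in edgeR 4.0.16 (R 4.3.3; TMM factors, quasi-likelihood F test, IL-33 and IL-33+LM8 samples only). SE is the log2 fold change divided by the root of F. Lists were described by counts and medians, without a test. Members and lists were chosen with earlier results of these data known. Genes named are the 10 largest rises and falls with at least 2 FPKM in the higher group, the 8 largest by FPKM difference, the most abundant and most changed of each list, and pathway genes, with further genes picked once values were known. Of the listed genes 83 were below the minimum and 12 were not matched to a single row and are not analysed here. The functions were tested on simulated data. Alternatives used DESeq2 1.42.0 and limma 3.58.1, other factors and filters, a replicate block and each sample left out. Promoter letters are from RefSeq.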

Additional observations from a re-analysis of the deposited data

How the results depend on the processing

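The 907 calls (245 higher, 662 lower) stayed within 1.5 times of that number under the other normalizations, with DESeq2 and with all 9 samples in a single fit, and every called gene kept its direction wherever it was tested. Left-out samples gave 780 to 963 calls, 204 to 285 higher and 563 to 678 lower. A mean of at least 5 FPKM, which tests fewer genes, gave 304 calls (84 higher, 220 lower), and limma on log2(FPKM + 1), a scale that understates low genes, gave 439 (91 higher, 348 lower). No minimum fold gave 4459 (2120 higher, 2339 lower) and a minimum of 1.5-fold gave 2149 (857 higher, 1292 lower). The replicate block gave 836 calls (221 higher, 615 lower). Same-numbered IL-33 and IL-33+LM8 samples had deviations from their group means correlated at -0.52, 0.31 and -0.55 for numbers 1, 2 and 3. These deviations went with the kind of library, so they cannot show whether the numbers pair the samples. IL-33 sample 1 went with IL-33+LM8 sample 3 (0.76), the libraries of these groups without liver transcripts.

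Of the genes followed singly 8 changed sign, none of them called. With the 4 libraries that held liver transcripts, 696 genes were called, Hspb1 was -0.01 and Irak4 0.03. Hsp90b1 was -0.01 with the replicate block and with both limma fits. Without 1 sample, Hsp90b1 ran from -0.12 to 0.13, Hspb1 from -1.04 to 1.58, Irak4 from -0.07 to 0.00, Cst3 from -0.07 to 0.02, Cfd from -0.07 to 0.58, Bst2 from -0.14 to 0.03, Per1 from -0.02 to 0.22 and Hspa8 from -0.19 to 0.03. The causes were not tested. With 3 samples per group, a low gene such as Il13 has an interval that reaches past a 2-fold fall.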
